A study of Homo sapiens with 9 samples.

Results

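The genes described here act in mitosis: they start it, build the kinetochore and the spindle, hold and release sister chromatids, divide the cell and compact the chromosomes. They were chosen by name, as 60 listed gene symbols matched to the rows of the count table. Of these, 59 were among the 59050 symbols of the table, and KIF23 was not analysed here. A filter on low counts, which kept genes with more than 1 CPM, a count scaled to the size of its library, in 3 or more of the 9 samples, was passed by 58 of the 59. NUSAP1, a microtubule binding protein of the spindle, did not pass it, with 2 to 20 counts per sample, and 92.2% of its exonic bases lie in exons of AC087721.2 on the same strand or OIP5 on the other strand. Whether reads were counted by strand is not given in the sources used here, and 49 of the 59 share less than 5% of their exonic bases with another locus on either strand. The other 10 are NUSAP1, PRC1 and BUB1B, with partners on the same strand, and CCNA2, CDCA3, PLK1, CENPU, CENPN, NCAPG and SMC4, whose partners lie on the other strand. The lowest count of a tested member in any sample was 79.

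RNA was sequenced from MEC1, an established cell line of chronic lymphocytic leukemia (CLL), in 3 culture conditions with 3 samples each. The 2D samples were conventional cultures, whose culture time the labels do not give. The 3D samples were MEC1 cells printed inside a hydrogel scaffold and harvested at day 7 (3D_7d) or day 14 (3D_14d). The study asked how the printed culture changes gene expression, and no drug or genetic change separated the groups as labelled. All 9 samples come from 1 cell line, and the labels do not say whether the replicates were separate cultures, so p-values measure the spread between these samples, which may be technical. The scaffolds went through TRIzol, a DNase I treatment and then a column, and the 2D cultures through a column kit only, so extraction and culture cannot be told apart in the comparisons with 2D. Both 3D times shared 1 extraction protocol. In bulk RNA, fewer dividing cells and less RNA of a gene in each dividing cell cannot be told apart.

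In textbook terms, CDK1 with cyclin B drives a cell into mitosis, and the kinases of the PLK, Aurora and NEK families then organise the centrosomes, spindle and chromosomes. Kinetochores assemble on centromeric chromatin that holds CENPA, bind microtubules through the NDC80 complex, and signal through the spindle checkpoint until every chromosome is attached. CDC20 and the anaphase promoting complex then trigger the destruction of securin and cyclin B, separase cuts cohesin, and the cell divides. Most of these genes are transcribed in G2 and M phase, from promoters that the DREAM complex represses in resting cells and that the MMB complex and FOXM1 activate in cycling cells. Circulating CLL cells are largely resting, and division in this disease is known from proliferation centres in lymphoid tissue.

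Between 54662799 and 85968686 reads were assigned to genes per sample, and 13463 genes were tested. Of 9 B cell markers, 8 were above 1 CPM in every sample and CD5 reached at most 0.669 CPM. The summed level of the 9 was 2647 to 2664 CPM in 2D, 2891 to 3653 CPM in 3D_7d and 3630 to 3997 CPM in 3D_14d. The summed level of 8 T and NK cell markers was 1.41 to 2.67 CPM in 2D, 2.92 to 3.34 CPM in 3D_7d and 4.98 to 7.26 CPM in 3D_14d, with 6 of the 8 never above 1 CPM, CD3D and CD3G at or near 0 and most of the sum in 3D from KLRD1. Sums of 6 myeloid markers were at most 5.17 CPM, with LYZ and S100A8 at or near 0, and sums of 6 stromal markers at most 11.5 CPM. The 3D_14d libraries differed most from each other, where the chi-square of counts per gene was 155 to 305 for a pair, against 22.5 to 81.9 for pairs within 2D or 3D_7d.

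All 58 tested members had lower mean levels in both 3D groups than in 2D. At day 7, 52 of 58 were down-regulated (edgeR's quasi-likelihood test, adjusted p of at most 0.05) and 0 were up-regulated, where 21.2% of all genes tested were down-regulated and 22.2% up-regulated. At day 14, 57 were down-regulated and 0 up-regulated, against 17.2% and 19.0% of all genes. Since all 58 log2 fold changes were below 0 at both times, no p threshold could call a member up-regulated against 2D in this fit. DESeq2 and each of the other settings tried also called 0 as up-regulated against 2D. The median log2 fold change of the members was -1.05 at day 7 and -1.62 at day 14, while the median of all genes tested was -0.00 and 0.02. Scaling by total counts alone moved these all-gene medians to -0.16 and -0.18 and the member medians to -1.21 and -1.83. Up-regulated genes were 51.1% of all calls at day 7 and 52.5% at day 14, and 37.6% and 33.0% under that scaling.

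**Figure D1:**
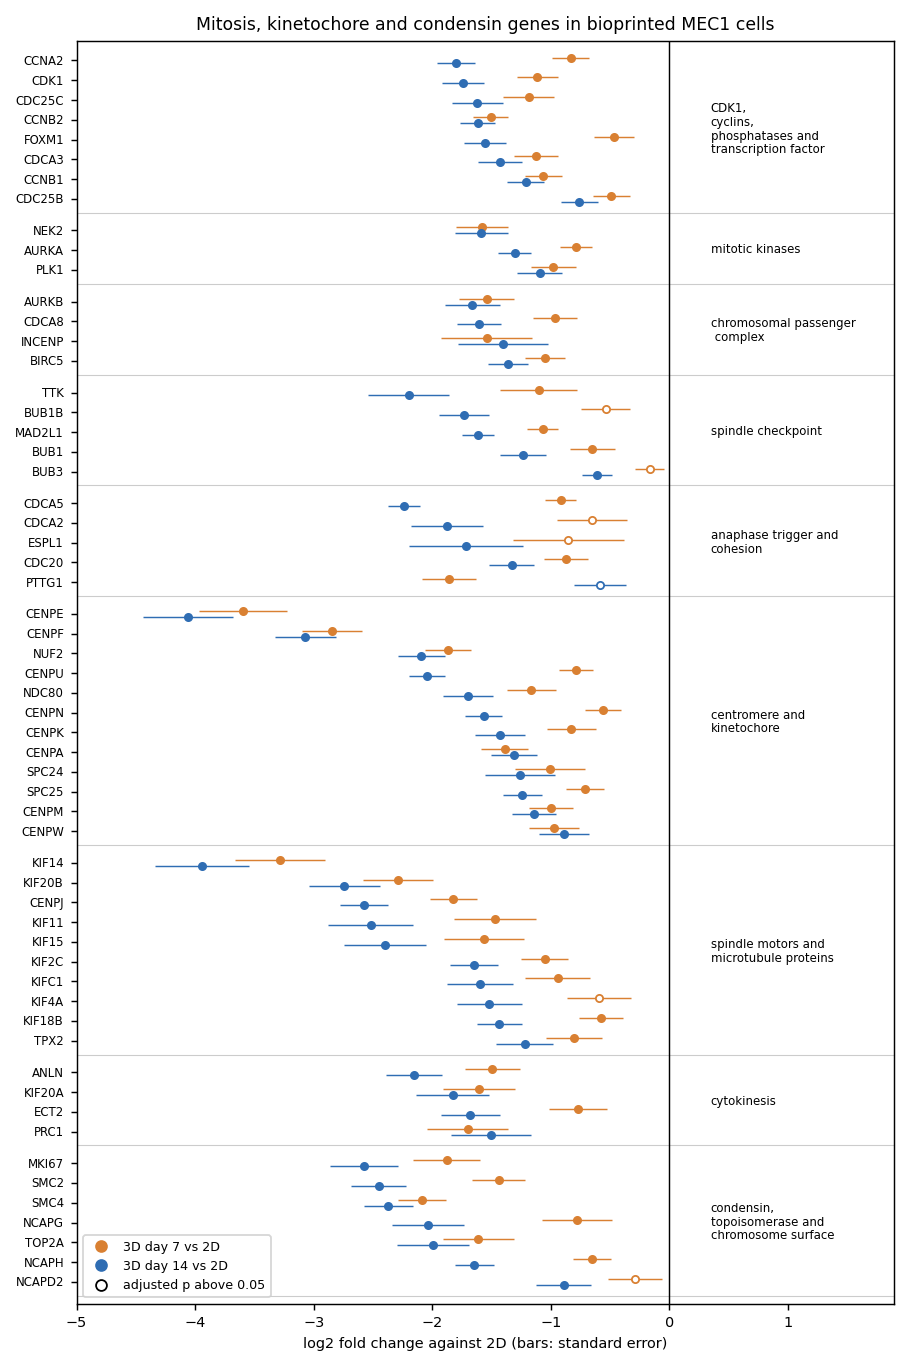
Log2 fold change of each tested member against 2D (horizontal axis, bars: standard error), at day 7 (orange) and day 14 (blue), grouped by role; open points had an adjusted p above 0.05. All points lie left of 0, from -4.06 for CENPE at day 14 to -0.16 for BUB3 at day 7.

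The groups were separated as well as shifted. The 3 samples of 3D_7d were all below the 3 samples of 2D for 58 of 58 members, where this held for 32.4% of all genes. At day 14 it held for 57 members against 25.5% of all genes, and PTTG1 was the exception. A fall of at least 1 on the log2 scale that passed the test was seen for 31 members at day 7 (12.2% of all genes) and 53 at day 14 (8.85%). The mean level of a member in 3D_7d was between 8.25% and 89.2% of its 2D mean, with a median of 48.3%. In 3D_14d it was between 6.0% and 66.6%, with a median of 32.6%.

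Summed over the 59 genes, the level was 6701, 6892 and 6789 CPM in the 2D libraries. It was 3713, 2917 and 2934 CPM in 3D_7d and 2195, 2695 and 2252 CPM in 3D_14d. The members held 0.711% to 0.757% of all counts in 2D, 0.282% to 0.368% in 3D_7d and 0.193% to 0.250% in 3D_14d, so that the 3 conditions did not overlap.

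**Figure D2:**
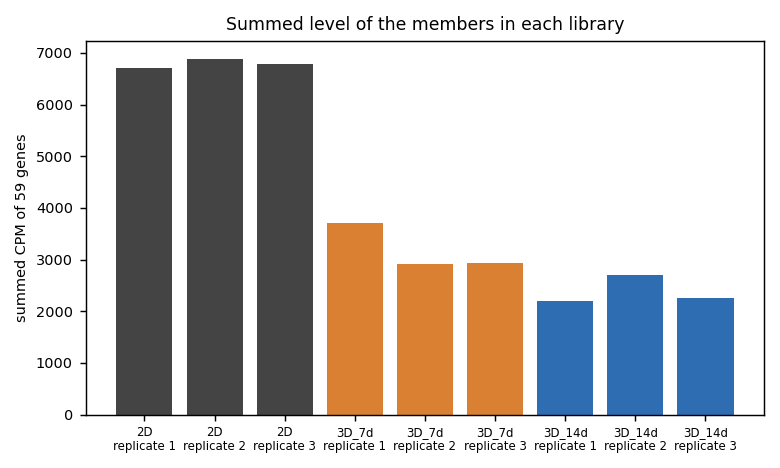
Summed level of the 59 members in each library (bars, CPM, axis from 0). The 2D libraries stand at 6701 to 6892, the 3D_7d libraries at 2917 to 3713 and the 3D_14d libraries at 2195 to 2695.

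The members also share letters in their promoters. The choice by name did not use these letters, but it took genes of mitosis, most of which are known targets of DREAM, MMB and FOXM1. The shares below are therefore not independent of the choice. The RefSeq table of promoters (build GRCh38.p14, 250 bases before to 50 bases after the start of a gene) held 50 of the 59 members. The CHR element, through which DREAM, MMB and FOXM1 are known to act, was searched as TTTGAA and with 1 changed letter as TTCGAA, the CCAAT box by the letters of its name and an E2F site as GCGGGAA, each on both strands. A CHR was found in 36 of 50 member promoters (72.0%), in 11.4% of the promoters of tested genes and in 16.6% of all 27305 promoters. A CCAAT box was found in 37 (74.0%, against 37.3% and 35.7%), and both together in 27 (54.0%, against 4.86% and 6.58%). The E2F letters were found in 8 (16%, against 10.4% and 6.56%). A match describes letters only, not a bound site.

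Promoters of 6 members are shown as picked examples, none of them from a member that was lower only from day 7 to day 14. Each is the 100 bases that end at the base before the start, 5′ to 3′ on the strand of the gene. CHR, CCAAT and E2F letters of either strand are in capitals. A motif on the opposite strand appears as its reverse complement. CCNB2 (chr15:59105046-59105145, plus strand) and PLK1 (chr16:23678789-23678888, plus strand) stand for members that were lower at day 7 without a further call at day 14. KIF11 (chr10:92593030-92593129, plus strand) and CDCA5 (chr11:65084041-65084140, minus strand) fell in both intervals. MKI67 (chr10:128126424-128126523, minus strand) is the usual marker of proliferation, and PTTG1 (chr5:160421755-160421854, plus strand) is the member that rose between the times.
CCNB2: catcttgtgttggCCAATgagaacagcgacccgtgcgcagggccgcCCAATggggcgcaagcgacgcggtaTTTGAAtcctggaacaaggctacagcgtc
PLK1: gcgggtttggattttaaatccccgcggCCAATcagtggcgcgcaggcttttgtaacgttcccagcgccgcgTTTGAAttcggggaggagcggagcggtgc
KIF11: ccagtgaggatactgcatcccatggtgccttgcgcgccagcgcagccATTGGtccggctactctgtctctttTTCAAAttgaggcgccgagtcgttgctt
CDCA5: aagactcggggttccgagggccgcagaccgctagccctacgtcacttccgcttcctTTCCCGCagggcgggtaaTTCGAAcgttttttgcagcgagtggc
MKI67: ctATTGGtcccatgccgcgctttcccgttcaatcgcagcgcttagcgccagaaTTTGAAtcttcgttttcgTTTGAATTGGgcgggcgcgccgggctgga
PTTG1: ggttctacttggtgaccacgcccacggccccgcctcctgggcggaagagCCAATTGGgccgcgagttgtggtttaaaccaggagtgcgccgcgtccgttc
In CCNB2 and PLK1 the CHR letters begin 29 bases before the start, in KIF11 28 and in CDCA5 26 bases before it. MKI67 holds CHR letters at 47 and at 29 bases, the second overlapping a CCAAT box. In PTTG1 no CHR letters occur in this stretch, and its CCAAT letters lie on both strands and overlap each other. A lack of CHR letters was not particular to PTTG1. The promoter entry of CENPE, the member with the lowest log2 fold changes, held no CHR, CCAAT or E2F letters. Those of CCNB1, CCNA2 and AURKB, which also fell, held no CHR letters. CDCA5 carries E2F letters 44 bases before the start.

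The genes that start mitosis were down-regulated throughout, 8 of 8 at day 7 and 8 of 8 at day 14. CDK1, the kinase that drives mitotic entry, stood at 254, 252 and 238 CPM in 2D, 143, 102 and 98.3 CPM in 3D_7d and 61, 80.0 and 81.6 CPM in 3D_14d. Its log2 fold change was -1.12 ± 0.17 (SE, adjusted p = 0.000309) at day 7 and -1.74 ± 0.18 (SE, adjusted p = 2.61e-05) at day 14, and all 3D libraries were below all 2D libraries. CCNB1, the cyclin partner of CDK1, stood at 180.4, 187 and 172 CPM in 2D, 99.2, 80.3 and 79 CPM in 3D_7d and 82.1, 87.9 and 62.9 CPM in 3D_14d. Its level fell to 47.9% of the 2D mean at day 7 and stood at 43.2% at day 14, and the 3D groups overlapped. CCNB2 had log2 fold changes of -1.51 and -1.62, and CCNA2, the cyclin of S and G2 phase, had -0.83 and -1.80.

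FOXM1, the transcription factor of many genes of G2 and M phase, was the member of this group with the smallest change at day 7. It stood at 74.5, 82.4 and 80.8 CPM in 2D, 69.3, 55.8 and 47.1 CPM in 3D_7d and 22.3, 30.3 and 28.2 CPM in 3D_14d. The log2 fold change was -0.47 ± 0.17 (SE, adjusted p = 0.0432) at day 7 and -1.56 ± 0.18 (SE, adjusted p = 5.31e-05) at day 14, so that most of its fall came after day 7. Its call at day 7 was lost without 2D replicate 2 or 3 or 3D_7d replicate 2 or 3 (adjusted p = 0.0673 to 0.121), and also with edgeR's filterByExpr and with no filter on low counts. The call was lost in 7 of 18 alternatives, with adjusted p up to 0.123. The phosphatases that activate CDK1 were also lower. CDC25B, with 33, 33.3 and 38.6 CPM in 2D, 25.8, 22.7 and 26.2 CPM in 3D_7d and 18.4, 23.2 and 20.4 CPM in 3D_14d, had the smallest fall of the group at day 14 (-0.76 ± 0.16 SE, adjusted p = 0.00271), and CDC25C had -1.19 and -1.62. The call of CDC25B at day 7 (-0.49 ± 0.16 SE, adjusted p = 0.0232) was lost without 2D replicate 3 or 3D_7d replicate 2 (adjusted p = 0.0671 to 0.0715). CDCA3, which helps to remove the CDK1 inhibitor WEE1, had -1.12 and -1.43.

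**Figure D3:**
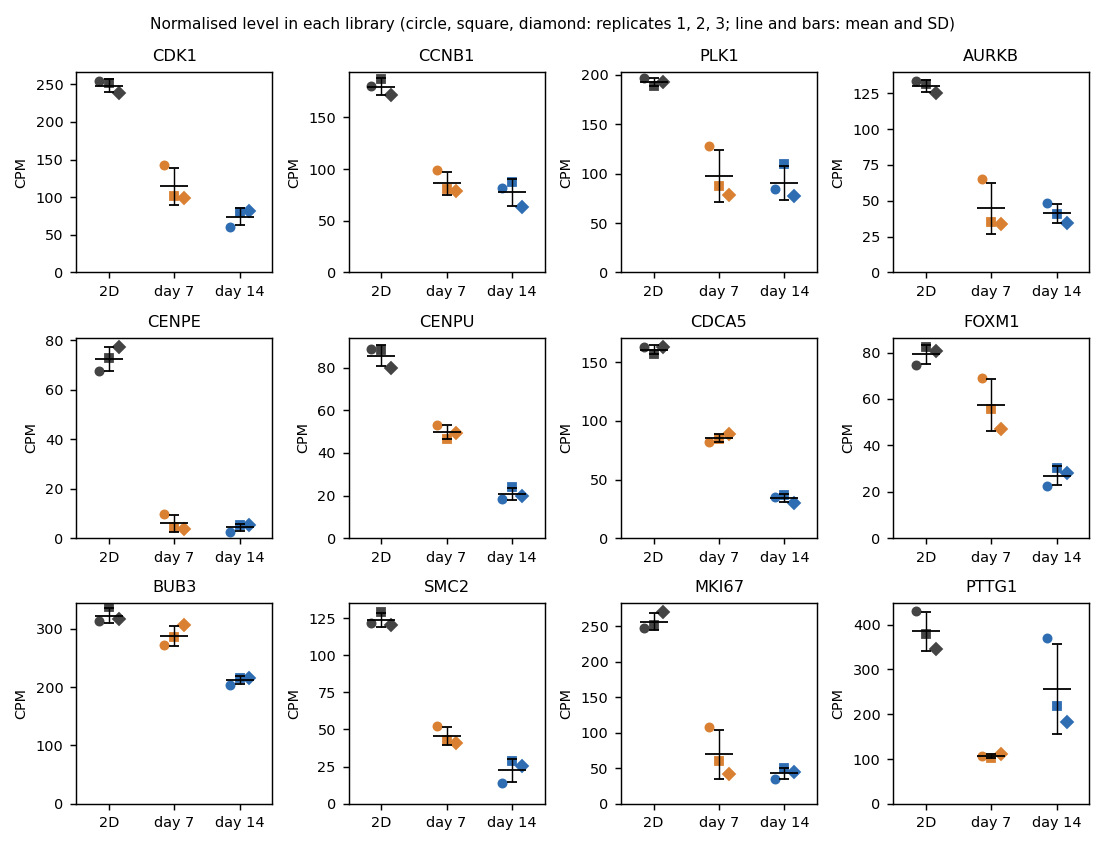
Level of 12 members in each library (CPM, axes from 0; circle, square and diamond are replicates 1, 2 and 3; line and bars are mean and SD, n = 3). CENPE falls from 67.4 to 77.2 CPM in 2D to at most 9.93 CPM in 3D, while PTTG1 is low in 3D_7d and returns towards its 2D level in 3D_14d.

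Mitotic kinases and the chromosomal passenger complex fell at both times, 7 of 7 members in each. PLK1, which acts at centrosomes, kinetochores and in cytokinesis, stood at 196, 189 and 193 CPM in 2D, 128, 87.6 and 78.2 CPM in 3D_7d and 84, 109.9 and 77.1 CPM in 3D_14d. The change was -0.98 ± 0.19 (SE, adjusted p = 0.00143) at day 7 and -1.09 ± 0.19 (SE, adjusted p = 0.000968) at day 14. AURKA, the Aurora kinase of centrosomes and spindle poles, stood at 103, 99.7 and 98.5 CPM in 2D, 64.3, 54.1 and 56.4 CPM in 3D_7d and 37.8, 44.3 and 39.7 CPM in 3D_14d, without overlap between any groups. It fell by day 7 (-0.78 ± 0.13 SE, adjusted p = 0.000621) and further by day 14 (-1.30 ± 0.14 SE, adjusted p = 3.22e-05). AURKB, the kinase subunit of the passenger complex, stood at 134, 131 and 125 CPM in 2D, 65, 35.1 and 34.1 CPM in 3D_7d and 48.1, 41 and 34.4 CPM in 3D_14d, and 3D_7d replicate 1 was the highest of the 3D libraries. Its changes were -1.54 ± 0.23 (SE, adjusted p = 0.000252) and -1.66 ± 0.23 (SE, adjusted p = 0.000221).

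The other subunits of the passenger complex were also lower at both times. BIRC5 (survivin) stood at 254, 237 and 258 CPM in 2D, 143, 101 and 117 CPM in 3D_7d and 99.1, 113 and 79.3 CPM in 3D_14d, with changes of -1.05 ± 0.17 (SE, adjusted p = 0.000391) and -1.36 ± 0.17 (SE, adjusted p = 0.000104). CDCA8 (borealin) had -0.96 and -1.60, and the scaffold INCENP -1.54 and -1.40. INCENP was low throughout, with a mean of 11.7 ± 1.19 CPM (SD, n = 3) in 2D, and its call at day 14 was lost without 3D_14d replicate 3 (adjusted p = 0.0525). NEK2, a kinase of centrosome separation, had nearly the same log2 fold change at both times, -1.58 and -1.59.

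The spindle checkpoint was the only role in which every member was called lower between day 7 and day 14, 5 of 5. The calls of BUB1, BUB3 and TTK were lost without single libraries, as given below. Log2 fold changes between the times were also below 0 for every tested member among the genes that start mitosis, the mitotic kinases, the spindle motors and the condensin group. At day 7, 3 of 5 members were called and BUB1B and BUB3 were not, and at day 14 all 5 were lower. BUB1B (BubR1), which holds CDC20 inactive, stood at 71.4, 91.7 and 98.3 CPM in 2D, 69.5, 55.4 and 55.2 CPM in 3D_7d and 18.2, 31.5 and 29 CPM in 3D_14d. Its change was -0.54 ± 0.21 (SE, adjusted p = 0.0511) at day 7 and -1.73 ± 0.21 (SE, adjusted p = 9.26e-05) at day 14. The first value lies next to the threshold, and it passed without 2D replicate 1, 3D_7d replicate 1 or 3D_14d replicate 1 or 2 (adjusted p = 0.00594 to 0.0411). BUB3, the partner of BUB1 and BUB1B, had the smallest day 7 change of all members and stood at 314, 337 and 317 CPM in 2D, 272, 286 and 306 CPM in 3D_7d and 204, 216 and 215 CPM in 3D_14d. It changed by -0.16 ± 0.12 (SE, adjusted p = 0.299) at day 7 and fell by day 14 (-0.61 ± 0.12 SE, adjusted p = 0.00237), with every 3D_14d library below every 3D_7d library. Its call between the times was lost without 3D_7d replicate 2 or 3 (adjusted p = 0.0732 to 0.101).

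MAD2L1 (MAD2), which inhibits CDC20 with BUB1B, stood at 179.9, 178 and 169.6 CPM in 2D, 87.2, 83.7 and 80.7 CPM in 3D_7d and 51.7, 64.5 and 56 CPM in 3D_14d. The 3 groups did not overlap, and the changes were -1.07 ± 0.13 (SE, adjusted p = 6.75e-05) and -1.62 ± 0.13 (SE, adjusted p = 8.83e-06). BUB1 had -0.65 and -1.23, and TTK (MPS1), the kinase that starts the checkpoint signal, had -1.10 and -2.20. The calls of BUB1 and TTK between the times were close to the threshold. That of BUB1 was lost without 2D replicate 1, 2 or 3, 3D_7d replicate 1, 2 or 3 or 3D_14d replicate 1 or 3 (adjusted p = 0.0505 to 0.0836), and that of TTK without 3D_7d replicate 1, 2 or 3 (adjusted p = 0.0519 to 0.0724).

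The genes of anaphase and sister chromatid cohesion held both the fall with the smallest adjusted p at day 14 and the exception. CDCA5 (sororin), which protects cohesin until mitosis, stood at 163, 157 and 163 CPM in 2D, 82.3, 84.7 and 88.9 CPM in 3D_7d and 35.2, 36.9 and 30.1 CPM in 3D_14d. With -0.92 ± 0.13 (SE, adjusted p = 0.000178) at day 7 and -2.24 ± 0.14 (SE, adjusted p = 1.45e-06) at day 14, it had the smallest adjusted p of the members at day 14, and its level in 3D_14d was 21.2% of the 2D mean. PTTG1 (securin), the inhibitor of separase, stood at 432, 379 and 346 CPM in 2D, 107, 102 and 111 CPM in 3D_7d and 370.1, 218 and 182 CPM in 3D_14d. It was lower at day 7 (-1.86 ± 0.23 SE, adjusted p = 5.98e-05), was the only member without a call at day 14 (-0.59 ± 0.22 SE, adjusted p = 0.0523) in the edgeR fit, and rose between the times (1.27 ± 0.22 SE, adjusted p = 0.00176). The 3D_14d libraries lay apart, with replicate 1 at 370.1 CPM inside the range of 2D and replicates 2 and 3 below it. Without 3D_14d replicate 1, the log2 fold change of PTTG1 at day 14 was -0.94 (adjusted p = 0.000197), which passed the test, and its rise between the times was 0.93. PTTG1 was also called lower at day 14 by DESeq2's Wald test, when scaled by total counts alone, with no filter on low counts and with the gene length trend removed, in 7 of 18 alternatives in all (adjusted p = 0.000197 to 0.161 over the 18). PTTG1 has near-identical copies in the genome, among them PTTG2, so its counts may include reads of other loci.

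ESPL1 (separase) stood at 19.6, 21.4 and 25 CPM in 2D, 10.7, 10.9 and 14.9 CPM in 3D_7d and 1.5, 7.17 and 11.5 CPM in 3D_14d. It was called at day 14 (-1.71 ± 0.48 SE, adjusted p = 0.0146) but not at day 7 (-0.85 ± 0.47 SE, adjusted p = 0.158), where it passed without 3D_14d replicate 1 (adjusted p = 0.00367). CDC20, which activates the anaphase promoting complex, stood at 244, 245 and 228 CPM in 2D, 153, 119 and 119 CPM in 3D_7d and 89.7, 123 and 72.6 CPM in 3D_14d. It was lower at both times, with log2 fold changes of -0.87 ± 0.19 (SE, adjusted p = 0.00248) and -1.33 ± 0.19 (SE, adjusted p = 0.000242). CDCA2 (Repo-Man), which brings a phosphatase to chromosomes in anaphase, was not called at day 7 (-0.65 ± 0.29 SE, adjusted p = 0.0884) and was lower at day 14 (-1.87 ± 0.30 SE, adjusted p = 0.000544). At day 7 it passed without 3D_14d replicate 1 or 2 (adjusted p = 0.0052 to 0.0365).

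Centromere and kinetochore genes were lower at both times in 12 of 12 cases, with the widest range of any role at day 7, from -3.60 for CENPE to -0.56 for CENPN. CENPE, a kinesin that carries chromosomes to the spindle equator, stood at 67.4, 72.7 and 77.2 CPM in 2D, 9.93, 4.47 and 3.52 CPM in 3D_7d and 2.59, 5.19 and 5.25 CPM in 3D_14d. It had the lowest log2 fold changes of all members, -3.60 ± 0.37 (SE, adjusted p = 2.09e-05) and -4.06 ± 0.38 (SE, adjusted p = 1.67e-05), and stood at 8.25% and 6.0% of the 2D mean. CENPF, a large protein of the outer kinetochore, had -2.84 ± 0.25 (SE, adjusted p = 8.69e-06) and -3.07 ± 0.26 (SE, adjusted p = 8.95e-06). CENPA, the histone H3 variant that marks the centromere, stood at 51.5, 49.7 and 45.7 CPM in 2D, 24.7, 17.6 and 13.8 CPM in 3D_7d and 21, 19.2 and 19.1 CPM in 3D_14d. Its level fell by day 7 (-1.39 ± 0.20 SE, adjusted p = 0.000183), and the 3D groups overlapped (0.08 ± 0.20 SE, adjusted p = 0.792 between the times).

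The NDC80 complex, the microtubule binding part of the kinetochore, was lower in all 4 subunits. NDC80 stood at 96.4, 102 and 91.7 CPM in 2D, 55.9, 38.7 and 34.8 CPM in 3D_7d and 21.8, 34.7 and 32.8 CPM in 3D_14d, with -1.16 ± 0.21 (SE, adjusted p = 0.000819) and -1.70 ± 0.21 (SE, adjusted p = 0.000105). NUF2, its partner, had -1.87 and -2.09, SPC24 had -1.01 and -1.26, and SPC25 had -0.71 and -1.24. The call of SPC24 at day 7 was lost without 3D_7d replicate 2 or 3 (adjusted p = 0.0537 to 0.0544). Of the inner kinetochore genes, CENPU stood at 88.7, 88.3 and 80.0 CPM in 2D, 53.2, 46.7 and 49.2 CPM in 3D_7d and 18.5, 24.1 and 19.9 CPM in 3D_14d and fell in both intervals, with log2 fold changes of -0.79 ± 0.15 (SE, adjusted p = 0.00101) at day 7 and -1.26 ± 0.15 (SE, adjusted p = 0.000198) from day 7 to day 14. Of its bases 17.7% are shared with PRIMPOL on the other strand, which had no call in the 3 comparisons. CENPN and CENPK also fell in both intervals, while CENPM and CENPW had -0.14 and 0.09 from day 7 to day 14, without a call. CENPN shares 24.9% of its bases with CMC2, on the other strand, and with other loci. CMC2 was also lower at day 7 (-0.69 ± 0.19 SE, adjusted p = 0.0109, against -0.56 ± 0.15 SE, adjusted p = 0.0112 for CENPN), with a 2D mean of 62.6 CPM against 31.5 CPM for CENPN. At day 14 CMC2 had -0.13 (adjusted p = 0.636) and CENPN -1.57. The part of shared reads in the day 7 call of CENPN was not tested. The second call of CENPK was close to the threshold (-0.60 ± 0.21 SE, adjusted p = 0.0475) and was lost without 2D replicate 1, 2 or 3, 3D_7d replicate 1, 2 or 3 or 3D_14d replicate 1 or 2 (adjusted p = 0.0748 to 0.134).

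Spindle motors and microtubule proteins were lower in 9 of 10 tested members at day 7 and in 10 of 10 at day 14. KIF14, a kinesin of the midbody, stood at 32.5, 32 and 35.6 CPM in 2D, 5.31, 2.87 and 2.09 CPM in 3D_7d and 1.46, 1.52 and 3.51 CPM in 3D_14d. Only CENPE had lower log2 fold changes than its -3.28 ± 0.38 (SE, adjusted p = 4.39e-05) and -3.94 ± 0.40 (SE, adjusted p = 2.53e-05). KIF20B stood at 74.8, 81.9 and 85.4 CPM in 2D, 21.9, 16.8 and 10.8 CPM in 3D_7d and 6.95, 13.7 and 15.5 CPM in 3D_14d, with -2.29 ± 0.30 (SE, adjusted p = 9.13e-05) and -2.74 ± 0.30 (SE, adjusted p = 4.49e-05). KIF11 (Eg5), which pushes the spindle poles apart, stood at 59.5, 75.2 and 73.9 CPM in 2D, 31.1, 26.4 and 17.8 CPM in 3D_7d and 5.06, 16.7 and 14.7 CPM in 3D_14d. Its log2 fold change was -1.47 ± 0.34 (SE, adjusted p = 0.00436) at day 7 and -2.52 ± 0.36 (SE, adjusted p = 0.000251) at day 14, and the 3 groups did not overlap. Its call between the times was lost without 2D replicate 3, 3D_7d replicate 1 or 2 or 3D_14d replicate 3 (adjusted p = 0.0505 to 0.117).

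CENPJ, which is needed to build centrioles, stood at 37.6, 44 and 49.5 CPM in 2D, 13.3, 14.2 and 9.6 CPM in 3D_7d and 7.19, 6.43 and 8.38 CPM in 3D_14d, with -1.82 ± 0.20 (SE, adjusted p = 2.98e-05) and -2.58 ± 0.20 (SE, adjusted p = 7.68e-06). Its call between the times was lost without 3D_7d replicate 2 (adjusted p = 0.0662). TPX2, the activator of AURKA on spindle microtubules, stood at 188, 202 and 185 CPM in 2D, 139, 95.5 and 94.9 CPM in 3D_7d and 53.4, 114 and 79.6 CPM in 3D_14d and had -0.80 ± 0.24 (SE, adjusted p = 0.0157) and -1.22 ± 0.24 (SE, adjusted p = 0.00194). KIF4A, a motor on chromosome arms, was not called at day 7 (-0.59 ± 0.27 SE, adjusted p = 0.0917) and was lower at day 14 (-1.52 ± 0.28 SE, adjusted p = 0.00118). At day 7 it passed without 3D_14d replicate 1 (adjusted p = 0.00329). KIF15, KIF18B, KIF2C and KIFC1 had day 7 log2 values between -1.56 and -0.58 and day 14 values between -2.40 and -1.43. At day 7 the call of KIF18B was lost without 2D replicate 2 or 3D_7d replicate 2 or 3 (adjusted p = 0.0528 to 0.0826), and that of KIFC1 without 3D_7d replicate 2 (adjusted p = 0.0512).

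Cytokinesis genes were lower at both times in 4 of 4 tested members. KIF20A (MKLP2), which moves the passenger complex to the midzone, stood at 88.7, 97.8 and 95.6 CPM in 2D, 40.9, 23.7 and 28.3 CPM in 3D_7d and 14.3, 40.2 and 25 CPM in 3D_14d. Its changes were -1.60 ± 0.30 (SE, adjusted p = 0.00117) and -1.83 ± 0.31 (SE, adjusted p = 0.000719). ANLN (anillin), a scaffold of the contractile ring, stood at 43.4, 56.8 and 55.4 CPM in 2D, 24.8, 13.8 and 16.8 CPM in 3D_7d and 11.1, 9.51 and 14.4 CPM in 3D_14d and had -1.49 ± 0.23 (SE, adjusted p = 0.000329) and -2.15 ± 0.24 (SE, adjusted p = 4.70e-05). ECT2, which activates RhoA at the ring, had -0.77 and -1.68, and its day 7 call was lost without 2D replicate 2 or 3 or 3D_7d replicate 2 or 3 (adjusted p = 0.0507 to 0.0588). PRC1, which bundles midzone microtubules, stood at 10.8, 10.2 and 10.1 CPM in 2D, 4.03, 2.74 and 2.79 CPM in 3D_7d and 2.17, 2.85 and 5.94 CPM in 3D_14d. The changes were -1.70 ± 0.34 (SE, adjusted p = 0.00168) and -1.50 ± 0.34 (SE, adjusted p = 0.00443). It shares 65.2% of its bases with AC068831.7 on its own strand and PRC1-AS1 on the other, so that reads of these loci cannot be told apart with certainty. PRC1-AS1 was itself lower, with log2 values of -1.98 and -2.41. The call of ANLN between the times (-0.66 ± 0.23 SE, adjusted p = 0.0491) was lost without 2D replicate 1, 2 or 3, 3D_7d replicate 1 or 3 or 3D_14d replicate 1 or 2 (adjusted p = 0.0649 to 0.212).

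Condensin and the genes of the chromosome surface were lower in 6 of 7 members at day 7 and 7 of 7 at day 14. The SMC2 and SMC4 subunits are common to both condensin complexes, and their log2 fold changes at each time were lower than those of the 3 condensin I subunits, a difference between genes that was not tested. SMC2 stood at 122, 129 and 120.1 CPM in 2D, 52.6, 43 and 41.1 CPM in 3D_7d and 14, 28.7 and 25.2 CPM in 3D_14d, with -1.44 ± 0.22 (SE, adjusted p = 0.000314) and -2.45 ± 0.23 (SE, adjusted p = 1.75e-05). SMC4 stood at 211, 209 and 216 CPM in 2D, 65.1, 44.5 and 40.5 CPM in 3D_7d and 32.3, 40.4 and 50.3 CPM in 3D_14d, with -2.08 ± 0.20 (SE, adjusted p = 1.48e-05) and -2.37 ± 0.21 (SE, adjusted p = 1.08e-05). Of the condensin I subunits, NCAPH stood at 78, 81.3 and 82.6 CPM in 2D, 63, 42.4 and 48.6 CPM in 3D_7d and 23.8, 28.6 and 24.9 CPM in 3D_14d, with -0.65 ± 0.16 (SE, adjusted p = 0.00645) and -1.64 ± 0.17 (SE, adjusted p = 2.70e-05). NCAPG had -0.78 and -2.03, shares 35.6% of its bases with LCORL (itself lower, -1.73 and -1.02), and lost its day 7 call without 2D replicate 1, 2 or 3, 3D_7d replicate 2 or 3 or 3D_14d replicate 3 (adjusted p = 0.0546 to 0.139). NCAPD2 stood at 167, 189 and 191 CPM in 2D, 151, 136 and 159 CPM in 3D_7d and 59.9, 136 and 98.9 CPM in 3D_14d. It was not called at day 7 (-0.29 ± 0.23 SE, adjusted p = 0.319) and was lower at day 14 (-0.89 ± 0.23 SE, adjusted p = 0.00929). SMC4 shares 25.1% of its bases with TRIM59, which had no call in the 3 comparisons.

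TOP2A, the topoisomerase that untangles sister chromatids, stood at 219, 255 and 259.8 CPM in 2D, 94.4, 72.8 and 72.9 CPM in 3D_7d and 28, 75.5 and 80.7 CPM in 3D_14d. Its log2 fold change was -1.61 ± 0.30 (SE, adjusted p = 0.00104) at day 7 and -1.99 ± 0.30 (SE, adjusted p = 0.000389) at day 14, where replicate 1 was the lowest library. MKI67 (Ki-67), which coats mitotic chromosomes, stood at 247, 252 and 271 CPM in 2D, 108, 59.6 and 41.4 CPM in 3D_7d and 34.3, 49.8 and 44.9 CPM in 3D_14d. Its level was 27.2% of the 2D mean at day 7 and 16.8% at day 14 (-1.88 ± 0.28 SE, adjusted p = 0.000244 and -2.58 ± 0.29 SE, adjusted p = 4.99e-05), and 3D_7d replicate 1, at 108 CPM, was the highest 3D library.

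Between the 2 times in 3D, 26 of 58 members fell further (13.6% of all genes were lower), PTTG1 rose (14.5% of all genes were higher), and 31 were not called. The median log2 fold change of the members was -0.54 and that of all genes -0.00, and all 3D_14d libraries were below all 3D_7d libraries for 27 members against 20.5% of all genes. A fall of at least 1 on the log2 scale that passed the test was seen for 10 members (3.51% of all genes). The largest were those of CDCA5 (-1.32 ± 0.13 SE, adjusted p = 9.27e-05), CENPU (-1.26 ± 0.15 SE, adjusted p = 0.000198), NCAPG (-1.25 ± 0.30 SE, adjusted p = 0.00903) and CDCA2 (-1.22 ± 0.30 SE, adjusted p = 0.00979). The count depended on the 3D_7d libraries, with 16 members lower without 3D_7d replicate 1 and 17 without replicate 2. It was 13 in a fit of the 6 samples of this comparison alone. The call of CDK1 was lost without 3D_7d replicate 1 (adjusted p = 0.0661), that of CDCA8 without 3D_7d replicate 1 or 2 or 3D_14d replicate 3 (adjusted p = 0.0557 to 0.0624), that of SPC25 without 2D replicate 1 or 2, 3D_7d replicate 1 or 3 or 3D_14d replicate 3 (adjusted p = 0.0519 to 0.12), that of KIF2C without 2D replicate 1, 2 or 3, 3D_7d replicate 1, 2 or 3 or 3D_14d replicate 1 or 3 (adjusted p = 0.0506 to 0.105) and that of KIF4A without 3D_7d replicate 1, 2 or 3 (adjusted p = 0.0506 to 0.0611). In the other direction, CDC20, NDC80, KIF15, KIFC1, NCAPD2 and TPX2 passed without 3D_14d replicate 2, ESPL1 and KIF14 without 3D_14d replicate 3, and MKI67 without 3D_7d replicate 3.

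By their calls in the 2 intervals, which share the 3D_7d samples, the members fell into 5 patterns. Lower by day 7 and lower again by day 14 were 22 members, against 0.951% of all genes: CDK1, CCNA2, FOXM1, AURKA, CDCA8, BUB1, MAD2L1, TTK, CDCA5, CENPU, CENPN, CENPK, SPC25, KIF11, KIF18B, KIF2C, CENPJ, ANLN, ECT2, NCAPG, NCAPH and SMC2. The second call was lost in 13 of 18 alternatives for ANLN, in 12 for CENPK and in 9 each for BUB1 and KIF2C. For ANLN and CENPK these included total counts alone, filterByExpr, the 6 samples alone and the length trend removed. AURKA lost its second call with no filter on low counts and with the 6 samples alone. The day 7 call of NCAPG was lost in 8 of 18. Lower by day 7 without a second call were 29, among them CCNB1, CCNB2, PLK1, AURKB, CENPE, CENPF, NUF2, KIF14, KIF20B, SMC4 and TOP2A. Of all genes, 21.2% were lower by day 7 and 13.6% were lower in the second interval, each whatever the call in the other interval. Shares of all genes with the other patterns were not computed, so the member counts of those patterns stand without a matching background. BUB1B, BUB3, CDCA2 and KIF4A were lower only in the second interval by these calls, and ESPL1 and NCAPD2 were called in neither but were lower at day 14 against 2D. PTTG1 fell and then rose. A missing call does not show that a member was stable: MKI67 had -0.70 ± 0.27 (SE, adjusted p = 0.074), KIF15 -0.83 ± 0.33 (SE, adjusted p = 0.0789) and NDC80 -0.54 ± 0.21 (SE, adjusted p = 0.0709) in the second interval. CHR letters were found in 18 of 26 promoters of the 29 members (69.2%) and in 15 of 20 promoters of members that fell in the second interval (75%).

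**Figure D4:**
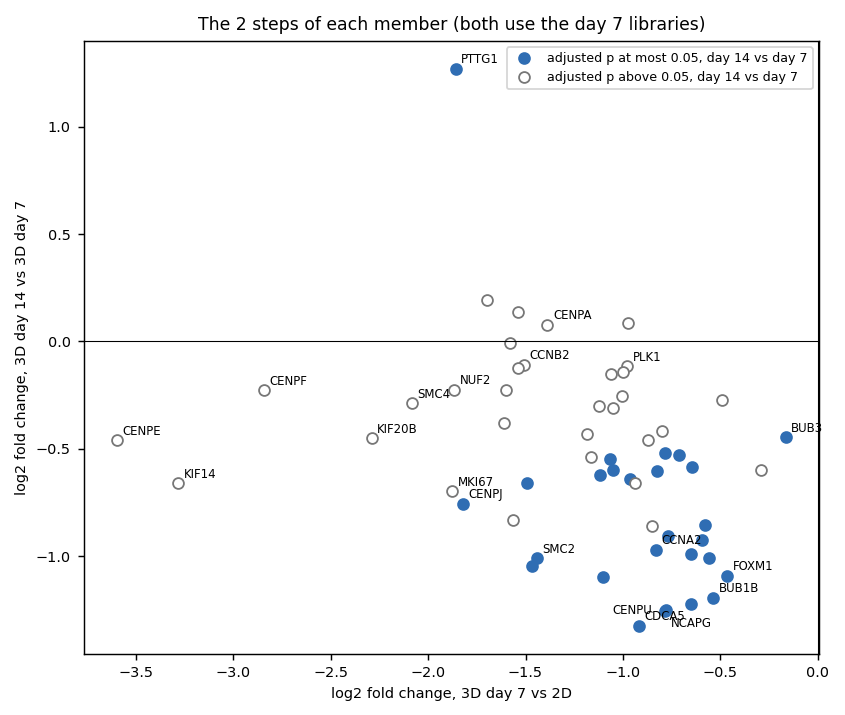
Log2 fold change of each tested member from 2D to 3D day 7 (horizontal) and from day 7 to day 14 (vertical); both axes use the day 7 libraries. Filled points passed the test between the times: 26 lie below 0 and PTTG1 alone lies above it, at 1.27.

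Per length of the gene, the order of the members in 2D ran over a wide range. PTTG1 had the highest mean RPKM (CPM per kilobase of exon) with 346, followed by CDC20 with 132, CDK1 with 122, CENPM with 110 and AURKB with 100.1. The lowest of the tested members were PRC1 with 2.49, INCENP with 2.84 and ESPL1 with 3.31. PRC1 shares 65.2% of its exonic bases with other loci, and how reads on shared bases were counted is not given, so its rank is uncertain. In 3D_14d, PTTG1 was at 231, CDC20 at 52.7 and CDK1 at 36.4. Across the 58 members, Spearman's rho between log2 fold change and gene length was -0.15 at day 7, -0.51 at day 14 and -0.35 between the times, against 0.10, -0.10 and -0.23 over all genes. Genes are not independent replicates, and the values describe these libraries. With the length trend of each library removed, the member values were -0.29, -0.45 and -0.05. The 29 longer members had a median of -1.73 at day 14 and the 29 shorter ones -1.59.

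Single libraries moved many members together. 3D_7d replicate 1 was the highest of its group in 49 of 58 members, and of all genes in 39.6%. The median deviation of the members in it, from the mean of the other libraries of its group, was 0.38 on the log2 scale. 3D_14d replicate 1 was the lowest of its group in 39 members, and of all genes in 40.0%, with a median deviation of -0.38 by the same measure. The part of these deviations in the values above was not tested beyond leaving out each library. With any 1 library left out, 45 to 56 members were lower at day 7 and 56 to 58 at day 14, with medians of -1.20 to -1.02 and -1.74 to -1.53.

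Other genes of mitosis were taken from lists by name, and their counts stand against 21.2% of all genes lower and 22.2% higher at day 7, and 17.2% lower and 19.0% higher at day 14. Of 24 other spindle and cytokinesis genes, 16 were lower and 1 higher at day 7, and 22 lower and 0 higher at day 14. ASPM, which focuses spindle poles, had -3.09 and -3.09. Of 26 other kinetochore and centromere genes, 10 were lower and 2 higher at day 7, and 19 lower and 1 higher at day 14. SGO2, a protector of cohesin, had -2.36 and -2.67, and KNL1, the kinetochore platform of the checkpoint, had -2.47 at day 14. The medians of these lists were -1.02 and -0.30 at day 7 and -1.63 and -1.17 at day 14.

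The list of the anaphase promoting complex had medians near 0. Of 18 genes of the complex and its partners, 4 were lower and 5 higher at day 7 and 4 lower and 0 higher at day 14, with medians of -0.05 and -0.02. The day 7 counts in both directions and the day 14 count of lower genes were near the shares of all genes. Those that fell included the cell cycle regulated partners UBE2C, its ubiquitin conjugating enzyme (-1.52 and -1.69), and FBXO5 (EMI1), its inhibitor (-1.14 and -1.83). Of 13 cohesin and other condensin genes, 3 were lower and 1 higher at day 7 and 7 lower and 0 higher at day 14. The day 7 count of lower genes was near the share of all genes, and the medians of this list were -0.08 at day 7 and -0.54 at day 14. SMC3, a core subunit of cohesin, had the lowest values of the list, -1.56 and -1.52.

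Of 12 DREAM and MMB subunits, 2 were lower and 3 higher at day 7, near the shares of all genes, and 5 were lower and 1 higher at day 14. A list of 12 tested regulators of mitotic entry and of CDKs held both inhibitors and genes that promote entry, with 4 lower and 1 higher at day 7, and 5 lower and 1 higher at day 14. The gene higher at both times was ENSA, an inhibitor of the phosphatase that opposes CDK1 (0.70 and 0.55). MASTL (Greatwall), a kinase that keeps phosphates on CDK1 targets, had -1.08 and -2.17.

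The calls of the 36 DNA replication genes came mainly between the times in 3D. At day 7, 5 were lower and 10 higher (median 0.14), near the shares of all genes (21.2% and 22.2%). At day 14, 34 were lower and 0 higher (median -1.17), against 17.2% and 19.0% of all genes. From day 7 to day 14, 34 were lower and 0 higher, with a median of -1.27, against 13.6% and 14.5% of all genes. MCM4, a subunit of the replicative helicase, was higher at day 7 (1.11 ± 0.24 SE, adjusted p = 0.00279) and lower again between the times (-2.14 ± 0.25 SE, adjusted p = 0.00018). CDC6, which loads the helicase, had -2.32 between the times. CDT1, its partner in loading, was lower at day 7 (-2.11). Across the 7 lists together, the count of genes higher at day 7 was 23, but 13 when scaled by total counts alone and 12 without 2D replicate 1.

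**Figure D5:**
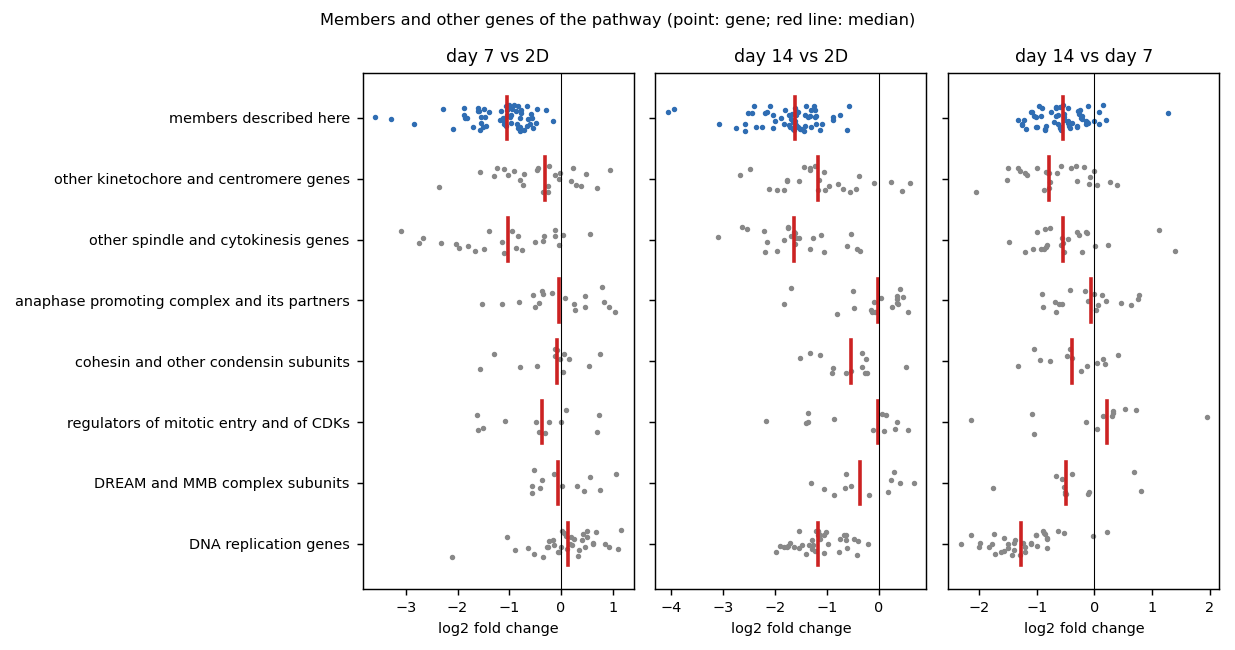
Log2 fold change of the 58 tested members and of 7 lists of other genes in the 3 comparisons (horizontal axis; each point is a gene, spread vertically only to be visible, and the red line is the median). DNA replication genes have a median of 0.14 at day 7 and -1.17 at day 14, while the members have -1.05 and -1.62.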

How the data were processed

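RNA of MEC1 was sequenced in 9 samples, grouped by the labels as 2D, 3D_7d and 3D_14d with 3 samples each. Per the labels, libraries were made with a SMART-Seq v4 low input kit and sequenced as single reads. The submitters' processing notes name Trimmomatic 0.39, STAR 2.5.3a and featureCounts 1.6.4 on GRCh38. The values used are the deposited raw counts per gene symbol, without normalization. How reads on shared bases or with several matches were counted is not given in the sources used here. The deposited table gives exon coordinates on GRCh38, and gene lengths are the union of exons.

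In R 4.3.3, edgeR 4.0.16 computed TMM factors, kept those genes that passed 1 CPM in 3 or more samples (13463 of the 51726 with at least 1 count) and fitted 1 model with a mean per group. The quasi-likelihood test gave log2 fold changes, p-values and Benjamini-Hochberg adjusted p-values over all genes tested, with a threshold of 0.05. The SE is the log2 fold change divided by the square root of the F statistic. CPM values use TMM-scaled library sizes. With 3 samples against 3, an exact permutation test of a single gene cannot go below 0.1, so only the fit over all genes was used. Totals were 54662799 to 85968686 counts per sample. Counting error was not set apart from the spread between samples, and the lowest count of a tested member in a sample was 79.

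The members, the 7 lists of other genes, the marker lists and the tests were chosen with earlier results of these data known. Named genes are all members. Values in every sample are given for 29 members picked by role and for the 2 lowest and 2 highest log2 fold changes of each comparison. From the other lists, named genes are among the 2 lowest and 2 highest called in a comparison. Promoter sequences are from RefSeq (GRCh38.p14), with the first entry per symbol. Alternatives were DESeq2's size factors or total counts alone for scaling, the Wald test of DESeq2 1.42.0, edgeR's filterByExpr or no filter, the 6 samples of a comparison alone, the replicate number as a block, a gene length trend removed per library by loess (span 0.4) with and without the block, a minimum absolute log2 fold change of 1, and leaving out each sample.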

Additional observations from a re-analysis of the deposited data

Results flagged for a closer look

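The change against 2D differed between day 7 and day 14 for 27 of 58 tested members, by the edgeR test of 3D_14d against 3D_7d, which is the test of that difference because both times share the 2D samples. Of all genes tested, 28.1% passed it. For 26 members the fall against 2D was larger at day 14. The log2 differences (3D_14d minus 3D_7d) of the 10 largest were CDCA5 (-1.32), CENPU (-1.26), NCAPG (-1.25), CDCA2 (-1.22), BUB1B (-1.19), TTK (-1.10), FOXM1 (-1.09), KIF11 (-1.05), SMC2 (-1.01) and CENPN (-1.01). Those of the other 16 were NCAPH (-0.99), CCNA2 (-0.97), KIF4A (-0.92), ECT2 (-0.91), KIF18B (-0.86), CENPJ (-0.76), ANLN (-0.66), CDCA8 (-0.64), CDK1 (-0.62), CENPK (-0.60), KIF2C (-0.60), BUB1 (-0.59), MAD2L1 (-0.55), SPC25 (-0.53), AURKA (-0.52) and BUB3 (-0.45). PTTG1, the separase inhibitor, was the only member that moved the other way, with 1.27 ± 0.22 (SE, edgeR adjusted p = 0.00176), and its 3D_14d libraries stood at 370.1, 218 and 182 CPM. The groups hold 3 samples each, so single samples were not tested as outliers.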

How the results depend on the processing

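All log2 fold changes of the 58 members against 2D stayed negative in the 18 alternatives that refitted them. A call was lost in 30 of 1044 such values at day 7 and in 1 at day 14, and gained in 27 and 7. Between the times, 81 calls were lost and 27 gained, and 31 values changed sign, of 13 members without a call there. The cause was not tested.

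With 1 library left out, members lower numbered 45 to 56 at day 7, 56 to 58 at day 14 and 16 to 30 between the times, with medians of -1.20 to -1.02, -1.74 to -1.53 and -0.64 to -0.40. In the 7 lists, calls at day 7 were 40 to 55 lower and 12 to 32 higher, at day 14 87 to 98 and 0 to 8, and between the times 63 to 82 and 4 to 8. With a minimum absolute log2 fold change of 1, fewer genes can pass by construction: 31 members were lower at day 7 and 10 between the times, and in the lists 28 were lower and 4 higher at day 7, 0 higher at day 14, and 41 lower and 3 higher between the times. Total counts alone gave 13 list genes higher at day 7 and 0 at day 14, no filter on low counts gave 0 at day 14, and the 6 samples of the comparison alone gave 13 members lower and 3 list genes higher between the times.

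The shared replicate numbers did not pair the samples in every comparison: over all pairs of groups, same-numbered deviations correlated at -0.10 to 0.19, and not every sample correlated best with its own number. Between 2D and 3D_14d alone they correlated at 0.19, 0.11 and 0.093, each the best match of its sample between these groups. With the replicate block, 50, 58 and 26 members were lower in the 3 comparisons, with medians of -1.06, -1.64 and -0.54, PTTG1 being the added call at day 14. Besides FOXM1, day 7 calls were lost for CDC25B, CENPN and KIF18B with no filter and for NCAPG with filterByExpr and with the block.

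Sign changes between the times were as follows. NEK2 (-0.01 as reported) had 0.011 with DESeq2's size factors and with DESeq2, 0.0077 with the 6 samples alone, 0.0041 with the replicate block, 0.027 with the length trend removed and 0.044 with both. With the length trend removed CENPA had -0.19 and CENPW -0.42 (adjusted p = 0.0439), and with the block as well -0.16 and -0.42. With 1 library left out, the range was -0.19 to 0.27 for NEK2, -0.075 to 0.33 for CENPA, -0.17 to 0.26 for CENPW, -0.28 to 0.12 for PLK1 and -0.26 to 0.25 for AURKB. It was -0.71 to 0.12 for CENPE, -0.46 to 0.070 for CENPF, -0.35 to 0.037 for CENPM, -0.35 to 0.054 for NUF2 and -0.61 to 0.12 for SPC24. It was -0.65 to 0.091 for KIF20A, -0.34 to 0.66 for INCENP and -0.34 to 0.48 for PRC1.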

Other observations

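Some genes of the lists outside the members also passed the test. PSRC1, a spindle protein, was lower at day 7 (-2.75 ± 0.20 (SE, adjusted p = 3.39e-06)) and rose between the times (1.13 ± 0.19 (SE, adjusted p = 0.00162)), and PIMREG, a mitotic regulator with 8.99% of its exonic bases shared with PITPNM3, also rose between the times (1.40 ± 0.39 (SE, adjusted p = 0.0196)). CDKN2D, an inhibitor of CDK4 and CDK6, was lower at day 7 (-1.61 ± 0.15 (SE, adjusted p = 1.04e-05)) and rose between the times (1.95 ± 0.15 (SE, adjusted p = 1.65e-05)). CDKN1B (p27), an inhibitor of CDK2, was lower at both times, with -1.60 ± 0.26 (SE, adjusted p = 0.000424) and -0.87 ± 0.25 (SE, adjusted p = 0.0174). CDC25A, the phosphatase of S phase entry, fell between the times (-2.14 ± 0.35 (SE, adjusted p = 0.00125)). LIN52, a subunit of the DREAM and MMB complexes, was higher at day 7 (1.07 ± 0.16 (SE, adjusted p = 0.000251)), and RBL1 (p107), which DREAM holds, was lower at day 14 (-1.31 ± 0.24 (SE, adjusted p = 0.0012)). These are edgeR values adjusted over all genes tested.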
